A study of Mus musculus with 6 samples.

Results

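The MT and ORR1 retrotransposon families are the rodent branch of the MaLR elements, non-autonomous relatives of the ERVL endogenous retroviruses. They were taken from a table of 1183 repeat families by name, as the families whose names begin with MTA to MTE or with ORR1, which gave 44 families. Of these, 19 are MT and 25 are ORR1 families. By name, 21 are long terminal repeats (LTRs), the ends that carry the promoter, and 23 are internal parts, which end in -int. The choice used names only and no measured value. MT-int does not match the name rule and was not counted, and neither were the 7 MERVL and MT2 families, which belong to the ERVL retrovirus itself.

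MaLR elements have no genes for their own mobilisation and depend on enzymes of related elements. In mouse, LTRs of the MT group are active promoters in the growing oocyte, where they also start chimeric transcripts of host genes, among them the short oocyte form of Dicer1, which starts in an MTC element. ORR1A elements are transcribed around the time at which the embryonic genome is switched on, as is MERVL with its MT2_Mm LTR. Within each group, MTA and ORR1A are the youngest families in the mouse genome and MTE and ORR1E are among the older ones.

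Mouse 2-cell embryos that had received 0.6 µg/µl of Suv39h1wt mRNA as zygotes, 18 h after hCG, and had then grown in KSOM medium were set against embryos that had received Suv39h1mut mRNA in the same way. Both groups had thus been through the injection. SUV39H1 is a methyltransferase that writes H3K9me3, a histone mark of heterochromatin; the nature of the mutation is not given in the labels used here. Each group had 2 libraries, made from 2 ng of amplified total RNA; the labels give neither the strain nor the number of embryos. They do not state that the 2 libraries were separate collections either, so each p-value rests on a spread that may be technical. Non-injected embryos have no repeat counts in the table used here.

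Repeat counts were 25.4 M and 23.3 M in the Suv39h1wt libraries and 28.5 M and 28.6 M in the Suv39h1mut libraries. All 44 families had counts in all 4 libraries, from 732 to 490381, so counting error was small beside the spread between libraries. All 44 also passed the low-count filter, together with 1082 families in all. Defining oocyte transcripts such as Zp3, Gdf9 and Bmp15, stored by the egg, were read in each library. The 7 oocyte markers summed to 1358 and 1643 CPM of gene counts in Suv39h1wt and 1462 and 1713 CPM in Suv39h1mut embryos. Oosp1 and Bmp15 carried most of this sum, while Zp3 had 813 to 1528 counts and Mos 7 to 59 counts in these libraries. The 6 matched 2-cell markers, Zscan4c, Zscan4d and Zfp352 among them, summed to 550.4 and 737.6 CPM against 499.0 and 430.5 CPM. The sum was carried by Zfp352, at 351.0 and 592.7 CPM in Suv39h1wt against 361.9 and 350.8 CPM in Suv39h1mut embryos, and the groups overlapped for 5 of the 6 markers, Dux among them, whose mean was lower in Suv39h1wt. Only Usp17la did not overlap, with 34.1 and 34.3 CPM in Suv39h1wt against 29.0 and 11.3 CPM. The part of these markers in the family values was not tested. The 8 cumulus and granulosa markers summed to 8.36 to 16.2 CPM, with Amh at 0 counts in 3 of these 4 libraries, blood markers to 0.823 to 6.53 CPM and sperm markers to at most 1.19 CPM in these 4 libraries.

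MaLR families gave a large part of the repeat reads of both groups, and the groups did not differ in this part beyond the spread of their libraries. They held 11.1% and 6.53% of repeat counts in Suv39h1wt libraries 1 and 2, against 10.2% and 7.33% in Suv39h1mut libraries 1 and 2. The means were 8.81% ± 3.22 and 8.78% ± 2.05 (SD, n = 2 each), and an exact two-sided permutation test gave p = 1; with 2 libraries against 2 it cannot go below 0.333. In both groups the library numbered 1 had the larger share. Between the libraries numbered 1 the share was higher in Suv39h1wt by 0.858 percentage points, and between those numbered 2 the difference was -0.806. In RNA of whole embryos, fewer transcribing cells and less RNA per cell cannot be told apart.

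MERVL and MT2 families took 19.8% and 18.97% of repeat counts in Suv39h1wt and 16.8% and 19.98% in Suv39h1mut libraries (exact permutation p = 1). All 7 log2 fold changes were positive (median 0.18, range 0.00 to 0.50), and the libraries overlapped for each. MERVL-int was at 0.15 ± 0.47 and its LTR MT2_Mm at 0.50 ± 0.45. MT-int, the internal part outside the name rule, was at 0.54 ± 0.28. The older MLT branch of MaLR, with 66 families, took 0.712% and 0.488% against 0.956% and 0.514%, and its 64 tested families had a median of -0.11. The differences between these sets were not tested.

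Levels of single families are given as CPM, the repeat counts of a library scaled to a common total with TMM factors, and fold changes as log2 values of Suv39h1wt over Suv39h1mut with their SE from edgeR. The table gives no length or copy number, so a CPM shows how many reads a family collected and is no level per copy or per base. Among the 44 families, 3 collected much of the reads: MTA_Mm-int, MTA_Mm and ORR1A0 together made up 39.8% and 33.6% of MaLR counts in Suv39h1wt libraries, against 29.2% and 29.0% in Suv39h1mut libraries. In all, 21 families averaged over 1000 CPM, and the fewest reads fell to MTE2a-int.

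**Figure D1:**
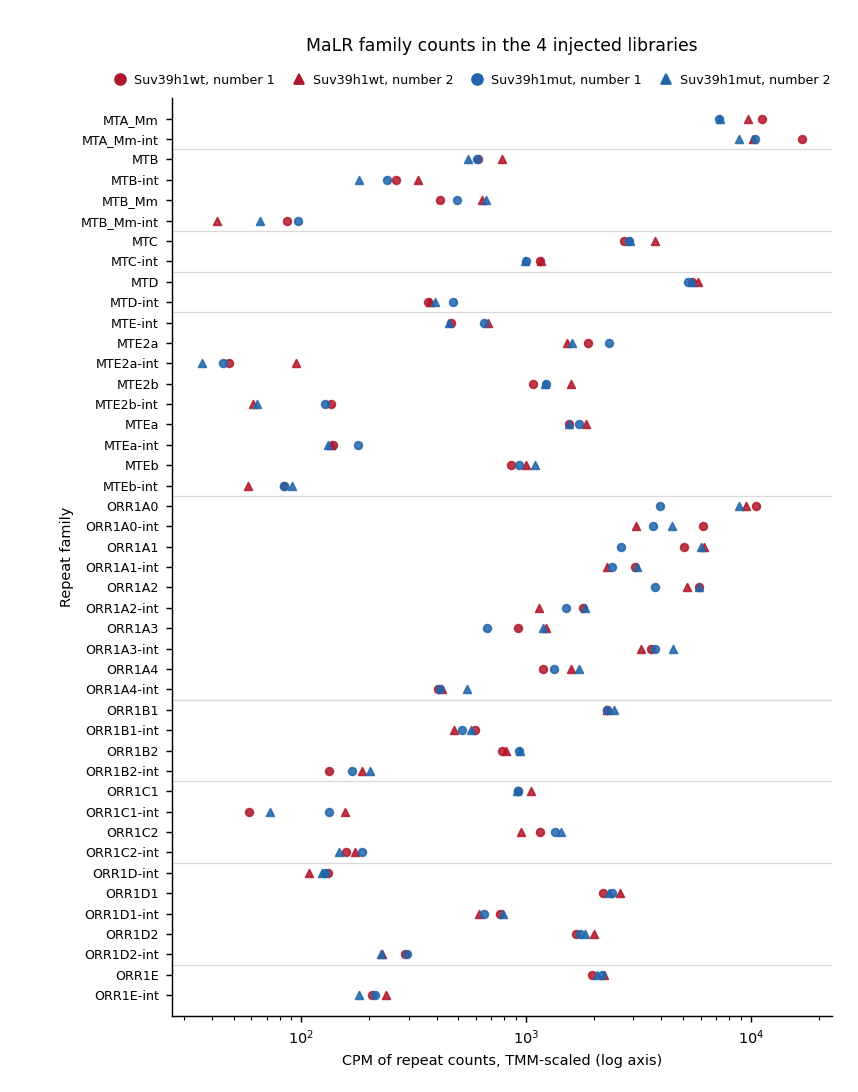
Counts of each of the 44 MaLR families in the 4 injected libraries, as TMM-scaled CPM of repeat counts on a log axis; each point is 1 library, red for Suv39h1wt and blue for Suv39h1mut, circles for number 1 and triangles for number 2. The points of MTA_Mm and MTA_Mm-int lie at the right, and the ORR1A0 point of Suv39h1mut library 1 stands left of the other 3.

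No MaLR family passed the test for Suv39h1wt against Suv39h1mut. edgeR's quasi-likelihood test called 0 of the 44 at a Benjamini-Hochberg adjusted p under 0.05 (smallest adjusted p = 0.993), where it called 0 of all 1082 families (0%). At an unadjusted p under 0.05 it counted 1 member, MTA_Mm, which was higher, where 1.85% of all families were counted as higher and 0.647% as lower. DESeq2 called 0 members and 1 of 1173 families (0.0853%). Of the 44, 22 lay above and 22 below 0, with a median log2 value of 0.01, beside a median of 0.04 over all families with 581 above and 501 below. LTRs were above 0 in 13 of 21 cases (median 0.06) and internal parts in 9 of 23 (median -0.02). MT families were above 0 in 12 of 19 cases (median 0.06) and ORR1 families in 10 of 25 (median -0.02). For 33 members the fold change was smaller than its SE, and for 35 it was under 0.3 in size. Data were simulated on 1082 families with the spread fitted to each family. The simulated libraries had no shift with library number and no differences in make-up beyond the planted changes. In them edgeR recovered 20.7% of 2-fold and 59.4% of 4-fold changes, and called 3 of 868 unchanged families. The changed families were drawn at random from all 1082, so these rates are not rates for the 44 members.

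In TMM-scaled CPM, libraries of the 2 groups did not overlap for 7 members that were higher and 5 that were lower in Suv39h1wt. Over all families tested the same held for 15.5% as higher and 13.8% as lower, so the members were near this background. The 7 higher ones were MTA_Mm, ORR1A0, MTC-int, ORR1C1, MTB, MTB-int and MTE2a-int. The 5 lower ones were ORR1A3-int, ORR1C2, ORR1B2, MTD-int and MTEb-int. Overlap depends on the scaling. It was judged on TMM-scaled CPM here and for each single family below, and was not counted under the other scalings. On the same scale and within library numbers, 11 members were higher and 12 lower in Suv39h1wt in both pairs, and 21 differed in sign between the pairs.

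**Figure D2:**
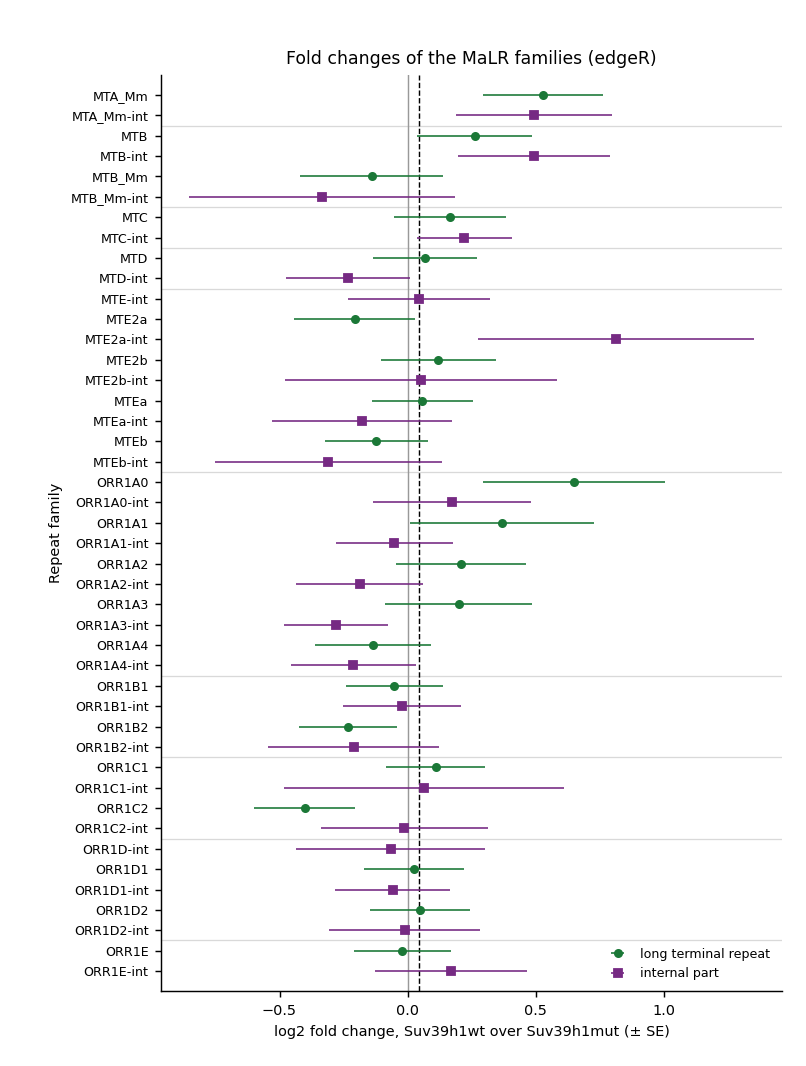
Log2 fold change of Suv39h1wt over Suv39h1mut for each of the 44 MaLR families, with bars for the SE of the edgeR fit (2 libraries per group); green circles are LTRs, purple squares internal parts, and the dashed line is the median of all families tested (0.04). Most bars span 0, with MTA_Mm, MTA_Mm-int, ORR1A0 and MTE2a-int to the right and ORR1C2 to the left.

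MTA gave the most reads of the 5 MT subgroups. Its LTR, MTA_Mm, stood at 11221 and 9729 CPM in Suv39h1wt libraries, against 7241 and 7273 CPM in Suv39h1mut libraries. On this TMM scale both Suv39h1wt values lay above both Suv39h1mut values, and the 2 Suv39h1mut libraries were nearly equal. Against table totals the groups overlapped. Suv39h1wt library 2 had 168962 of 23.3 M counts, while Suv39h1mut library 1 had 284669 of 28.5 M and library 2 177498 of 28.6 M. The log2 fold change was 0.53 ± 0.23 (edgeR adjusted p = 0.993), and without 1 library it was 0.37 to 0.63.

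The body of the element, MTA_Mm-int, was the family with the most reads. It stood at 16908 and 10234 CPM in Suv39h1wt, against 10467 and 8809 CPM in Suv39h1mut libraries. Its groups overlapped, with Suv39h1wt library 1 far above the other 3. The log2 fold change was 0.49 ± 0.30 (edgeR adjusted p = 0.993), and it was 0.03 without Suv39h1wt replicate 1 and 0.81 without Suv39h1wt replicate 2.

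MTB is listed as MTB and as MTB_Mm. The LTR MTB stood at 611.8 and 777.9 CPM in Suv39h1wt, against 607.0 and 551.8 CPM in Suv39h1mut embryos. MTB-int stood at 264.8 and 328.8 CPM against 239.9 and 181.4 CPM. Both had groups that did not overlap, with log2 fold changes of 0.26 ± 0.22 and 0.49 ± 0.30 (edgeR adjusted p = 0.993 each). MTB_Mm and MTB_Mm-int were at -0.14 ± 0.28 and -0.33 ± 0.52, with overlapping libraries.

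MTC is the family that provides the oocyte promoter of Dicer1. Its LTR stood at 2716 and 3739 CPM in Suv39h1wt, against 2869 and 2886 CPM in Suv39h1mut, which put its log2 fold change at 0.17 ± 0.22; it was -0.08 without Suv39h1wt replicate 2. Suv39h1wt library 2 was the high one, and the groups overlapped. MTC-int stood at 1148 and 1161 CPM against 996.2 and 985.1 CPM, a log2 fold change of 0.22 ± 0.19, with libraries of a group close together.

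MTD and MTE, the older MT families, showed differences of both signs. MTD stood at 5451 and 5787 CPM in Suv39h1wt against 5255 and 5465 CPM in Suv39h1mut, which put its log2 fold change at 0.07 ± 0.20. MTD-int was at -0.23 ± 0.24, with 364.4 and 372.6 CPM against 473.4 and 392.4 CPM. The 9 MTE families ranged from -0.31 ± 0.44 for MTEb-int to 0.81 ± 0.54 for MTE2a-int, with 5 positive and 4 negative. MTE2a-int had few reads, 1382 and 1638 counts against 1761 and 879, and Suv39h1wt library 2 set its fold change: it stood at 47.7 and 94.3 CPM against 44.8 and 36.0 CPM, and was at 0.24 without Suv39h1wt replicate 2. MTE2a was at -0.21 ± 0.24, from 1884 and 1519 CPM against 2335 and 1593 CPM.

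ORR1A0, the ORR1 family with the most reads, differed widely between the 2 Suv39h1mut libraries. It stood at 10540 and 9527 CPM in Suv39h1wt, against 3936 and 8853 CPM in Suv39h1mut embryos. The low value of Suv39h1mut library 1 carried most of the difference, though on this TMM scale both Suv39h1wt values lay above both others. Against table totals Suv39h1wt library 2 was below Suv39h1mut library 2, with 165460 of 23.3 M counts against 216052 of 28.6 M. The log2 fold change was 0.65 ± 0.36 (edgeR adjusted p = 0.993). It was 0.16 without Suv39h1mut replicate 1 and 1.35 without Suv39h1mut replicate 2.

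In TMM-scaled CPM, Suv39h1mut library 1 was also the lowest of the 4 for the LTRs ORR1A1, ORR1A2 and ORR1A3. This was not particular to ORR1A. On that scale the same library was lowest for MERVL-int, MERVL_2A-int, MT2_Mm, MT2A, MT2B and MT2C_Mm, though not for MT2B2. These ranks depend on the scaling. Unscaled, Suv39h1mut library 1 had 82725 MT2A and 63349 MT2B counts of 28.5 M repeat counts. Suv39h1mut library 2 had fewer, 76541 and 47579 of 28.6 M. ORR1A1 stood at 5025 and 6168 CPM in Suv39h1wt against 2646 and 6023 CPM in Suv39h1mut, which put its log2 fold change at 0.37 ± 0.36. ORR1A2 stood at 5867 and 5194 CPM against 3726 and 5845 CPM, at 0.21 ± 0.25, and ORR1A3 was at 0.20 ± 0.29. Without Suv39h1mut replicate 1 ORR1A1 was at -0.13 and ORR1A2 at -0.10, so the direction of these families rested on 1 library. ORR1A4, the last of the group, was at -0.14 ± 0.23.

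The internal parts of ORR1A had smaller or negative fold changes. ORR1A0-int stood at 6097 and 3074 CPM in Suv39h1wt against 3682 and 4459 CPM in Suv39h1mut, which put its log2 fold change at 0.17 ± 0.31; it was -0.46 without Suv39h1wt replicate 1 and 0.58 without Suv39h1wt replicate 2. ORR1A1-int stood at 3037 and 2280 CPM against 2400 and 3111 CPM, at -0.05 ± 0.23. In both, Suv39h1wt library 2 stood below Suv39h1wt library 1. ORR1A3-int stood at 3582 and 3232 CPM against 3760 and 4507 CPM, at -0.28 ± 0.20, with both Suv39h1wt values below both Suv39h1mut values. ORR1A2-int and ORR1A4-int were at -0.19 ± 0.25 and -0.21 ± 0.25.

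In the older ORR1B to ORR1E families, ORR1C2 stood out. It stood at 1149 and 951.5 CPM in Suv39h1wt, against 1341 and 1434 CPM in Suv39h1mut embryos. With this TMM scaling both Suv39h1wt values thus lay below both others. The log2 fold change was -0.40 ± 0.20 (edgeR adjusted p = 0.993), and -0.60 to -0.27 without 1 library. ORR1C2 was the only member among the 19 families that the authors list as differentially expressed, with a log2 fold change of -0.73 and an adjusted p of 0.0207 in the authors' deposited table. Of all families with an adjusted p in the authors' deposited table, 0.423% were called higher and 2.25% lower.

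ORR1B2 was at -0.23 ± 0.19, with 778.9 and 811.4 CPM in Suv39h1wt against 929.9 and 939.8 CPM in Suv39h1mut embryos and libraries of a group close together. All 4 ORR1B families were negative, from -0.23 to -0.02. The 5 ORR1D families ranged from -0.07 to 0.05, and ORR1E and ORR1E-int were at -0.02 ± 0.19 and 0.17 ± 0.30. ORR1C1 was at 0.11 ± 0.19, and ORR1C1-int, at 0.06 ± 0.55, had the largest SE of all 44, with 1701 and 2718 counts against 5235 and 1767.

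The make-up of the MaLR counts does not depend on how libraries are scaled. MTA families made up 28.9% and 22.8% of MaLR counts in Suv39h1wt, against 23.9% and 18.7% in Suv39h1mut libraries, higher by 5.07 and 4.02 percentage points within numbers 1 and 2, yet with overlapping groups (exact permutation p = 0.667). ORR1A families made up 39.6% and 38.6% against 32.4% and 44.4%, with opposite differences in the 2 numbers. ORR1B made up 3.90% and 4.28% against 5.25% and 4.85%, and ORR1C 2.35% and 2.66% against 3.48% and 2.99%. For these 2 of the 10 subgroups both Suv39h1wt values lay below both Suv39h1mut values, with the smallest p the exact permutation test can give, 0.333. For the other 8 subgroups the libraries overlapped. Shares of a library depend on each other, since a larger share of MTA or ORR1A lowers the rest. Mean shares were also lower in Suv39h1wt for MTB, MTC, MTD, MTE, ORR1D and ORR1E. Within ORR1C the log2 fold changes were -0.40 for ORR1C2, -0.01 for ORR1C2-int, 0.11 for ORR1C1 and 0.06 for ORR1C1-int.

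**Figure D3:**
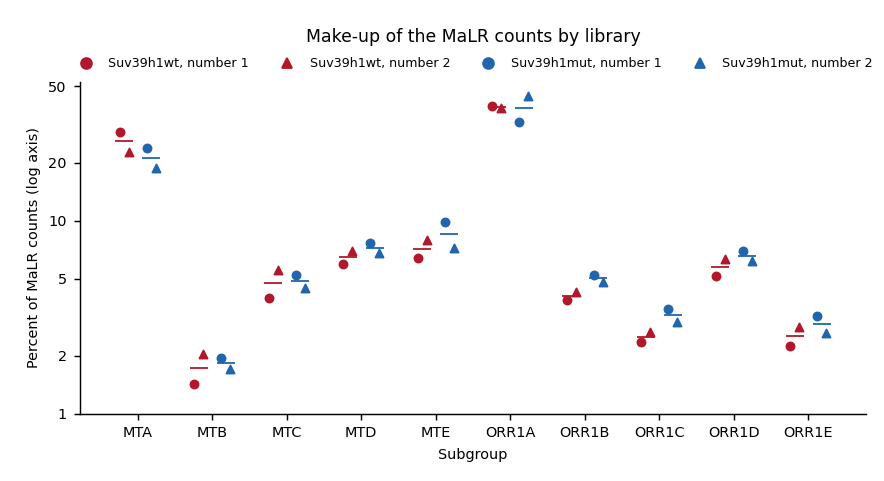
Share of each of the 10 subgroups in the MaLR counts, in percent on a log axis; each point is 1 library, red for Suv39h1wt and blue for Suv39h1mut, circles for number 1 and triangles for number 2, and lines are group means of 2 libraries. ORR1B and ORR1C are lower in both Suv39h1wt libraries, and MTA is higher in Suv39h1wt within each number.

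The ratio of internal to LTR counts is also free of scaling. Over all members it was 0.612 and 0.410 in Suv39h1wt, against 0.586 and 0.483 in Suv39h1mut libraries (exact two-sided permutation p = 1), lower in number 2 of each group. Names gave 21 pairs of an LTR and its internal part. MTA_Mm and ORR1A3 had more internal than LTR counts in each library, and the other 19 had fewer. The ratio was lower in library 2 than in library 1 for 16 of the 21 pairs in Suv39h1wt and for 16 in Suv39h1mut embryos. It was lower in Suv39h1wt within both numbers for 6 pairs, higher in both for 3 and of opposite sign for 12.

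The pairs ORR1A0 to ORR1A3 were among the 6 that were lower, with MTD and MTEa. For ORR1A0 the ratio was 0.578 and 0.323 in Suv39h1wt, against 0.935 and 0.504 in Suv39h1mut libraries. For ORR1A1 it was 0.604 and 0.370 against 0.907 and 0.517. For ORR1A2 it was 0.305 and 0.219 against 0.403 and 0.314, and for ORR1A3 3.91 and 2.65 against 5.62 and 3.78. Differences on the log2 scale were -0.69 and -0.64 within the 2 numbers for ORR1A0, -0.59 and -0.48 for ORR1A1, -0.40 and -0.52 for ORR1A2 and -0.53 and -0.51 for ORR1A3. Within each number the ratio was thus lower in Suv39h1wt, while across numbers the groups overlapped for ORR1A0, ORR1A1 and ORR1A3 (exact permutation p = 0.667) and did not for ORR1A2 (p = 0.333). ORR1A4 had 0.343 and 0.267 against 0.313 and 0.319. These pairs were picked out after their values were seen. Close families can share reads, so the pairs may not be independent observations. For ORR1A0 the part that differed in TMM-scaled CPM changed with the number. Unlike the ratio, this split into parts depends on the scaling. Between libraries numbered 1, its LTR stood at 10540 CPM in Suv39h1wt against 3936 in Suv39h1mut, and its internal part at 6097 against 3682. Between those numbered 2, the LTR stood at 9527 against 8853 CPM and the internal part at 3074 against 4459.

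**Figure D4:**
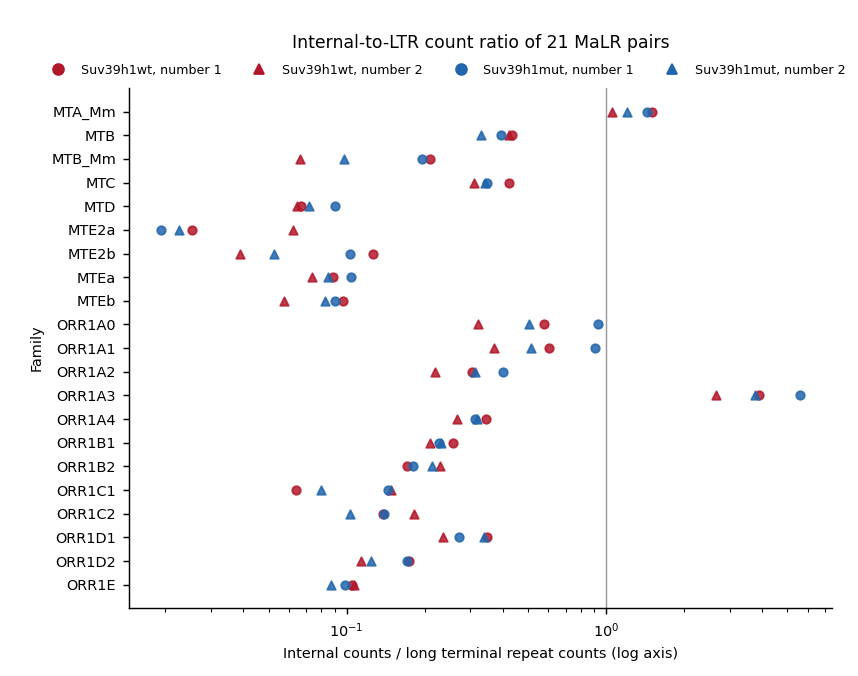
Internal counts divided by LTR counts for the 21 MaLR pairs on a log axis; each point is 1 library, red for Suv39h1wt and blue for Suv39h1mut, circles for number 1 and triangles for number 2. In ORR1A0 to ORR1A3 each red symbol lies left of the blue symbol of the same shape.

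Over 5 scalings, 28 members kept the sign of their fold change, 6 positive and 22 negative, and 16 changed it. With median-ratio scaling 22 were positive and 22 negative, as with TMM. Table totals alone gave 9 positive and 35 negative, factors from the gene library sizes gave 9 and 35 as well, and the authors' size factors gave 6 and 38. The median of all families moved alike: it was 0.04 with TMM, -0.20 with table totals, -0.18 with gene library factors and -0.33 with the authors' size factors. Set against that median, the members' median was lower by little under each scaling, at -0.04 with TMM and between -0.05 and -0.04 with the others. MTA_Mm lay 0.48 to 0.50 above the median of all families under these 5 scalings, ORR1A0 0.60 to 0.75 above it, and ORR1C2 between -0.45 and -0.41 from it. MTA_Mm and ORR1A0 were positive and ORR1C2 negative under each scaling.

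**Figure D5:**
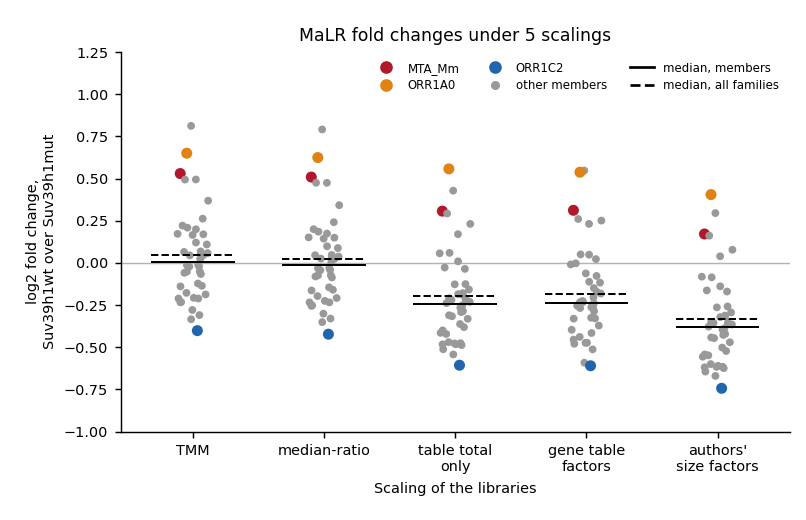
Log2 fold change of Suv39h1wt over Suv39h1mut for the 44 MaLR families under 5 scalings; each point is 1 family, solid lines are the median of the members and dashed lines that of all families tested. Both medians are below 0 for the 3 scalings on the right, where MTA_Mm and ORR1A0 stay above them and ORR1C2 below.

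Libraries also carry a number that the labels do not explain. In TMM-scaled CPM, 19 of the 44 members were lower in library 2 than in library 1 in Suv39h1wt and 21 in Suv39h1mut embryos. The median log2 differences were 0.06 and 0.01 on that scale, so after TMM scaling the members as a set showed little common shift. As a percentage of repeat counts they did shift with the number. The MaLR share was 11.1% in library 1 and 6.53% in library 2 of Suv39h1wt, and 10.2% and 7.33% in Suv39h1mut. Each subgroup had the smaller share of repeat counts in library 2 of both groups. With TMM scaling, summed MTA was lower in library 2 than in library 1 by a log2 difference of -0.49 in Suv39h1wt and -0.14 in Suv39h1mut embryos. Summed ORR1A differed by -0.18 and 0.66, in opposite directions. With the number as a replicate block edgeR called 0 members, where it called 0.370% of all families, and at an unadjusted p under 0.05 it counted 5 members, where 6.65% of all families were counted. MTA_Mm then had a log2 fold change of 0.53 ± 0.14 (adjusted p = 0.290). With the block and median-ratio scaling, ORR1A0 was called (0.74 ± 0.17, edgeR adjusted p = 0.00274; 1.48% of all families), but in that fit the spread of single families was not used. With the block and the authors' size factors, ORR1C2, ORR1A3-int, ORR1B2 and MTE2a were called as lower (edgeR adjusted p = 0.00448 to 0.0396; 2.03% of all families). In that fit the median log2 fold change of all families was itself -0.36, and 38 members were negative. With the block and TMM the log2 fold changes were -0.41 for ORR1C2, -0.27 for ORR1A3-int, -0.23 for ORR1B2 and -0.19 for MTE2a, and none was called. Each blocked fit left 1 residual degree of freedom.

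Genes known to act on such elements were read from the gene table, in which 22 of 22 listed genes were tested. Suv39h1 stood at 51.2 and 38.0 CPM of gene counts in Suv39h1wt, 28.0 and 41.5 CPM in Suv39h1mut and 41.2 and 35.0 CPM in non-injected embryos, so that the 3 groups overlapped. Its log2 fold change for Suv39h1wt over Suv39h1mut was 0.36 ± 0.51. It was 0.11 without Suv39h1mut replicate 1 and 0.69 without Suv39h1mut replicate 2. Suv39h1 mRNA was also what had been injected, and these counts do not tell injected from endogenous transcripts. Dicer1, which makes the small RNAs that act against MT transcripts in the oocyte, stood at 280.1 and 273.5 CPM in Suv39h1wt, 278.3 and 247.8 CPM in Suv39h1mut and 287.0 and 262.5 CPM in non-injected embryos. Its log2 fold change was 0.07 ± 0.41, with the libraries of the 3 groups overlapping.

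The list also holds the H3K9 methyltransferases Setdb1 and Ehmt2, the co-repressor Trim28, HP1 genes and the chromatin assembly factor genes. Over the list, 14 were positive and 8 negative, with a median of 0.10 beside -0.01 over 17638 genes. The sign of the list median rested on 1 library: it was -0.15 without Suv39h1mut replicate 2 and 0.37 without Suv39h1mut replicate 1. edgeR called 0 of the 22 (adjusted p = 1 for each), where it called 0% of all genes, and at an unadjusted p under 0.05 it counted 0, where 2.72% of all genes were counted; DESeq2 also called 0. The smallest p belonged to Cbx3, an HP1 gene, whose mean was 32.9 ± 20.6 CPM with Suv39h1wt and 16.2 ± 5.67 CPM with Suv39h1mut (SD, n = 2 each; log2 fold change 1.02 ± 0.68). Next was Zscan4d, a 2-cell gene with near-identical copies that can share its reads, at 87.7 ± 37.6 and 46.5 ± 26.3 CPM (0.92 ± 0.68).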

How the data were processed

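Repeat families were read from the deposited table of raw counts in the 4 injected libraries, made by the authors; how reads were assigned to families is not given in the sources used here, and reads of near-identical copies can fall to either of 2 families. Per the submitters' processing notes, the tools were CASAVA 1.8.2, TopHat2 2.0.14, Bowtie and HTSeq 0.6.1 and the build was mm9; whether counting used strand is not given in the sources used here. The signal values, normalized counts deposited by the authors, equal the raw count over 1 size factor per library. The log2 fold changes and p-values deposited by the authors are their own, and their test score was not used. Libraries were grouped by their titles, and 0 columns were left unmapped.

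The whole table was fitted with edgeR 4.0.16 in R 4.3.3 (robust quasi-likelihood F test, TMM scaling, filterByExpr with a minimum count of 10, group as the factor, 1082 of 1183 families, 2 residual degrees of freedom), with Benjamini-Hochberg adjustment over all families and 0.05 as threshold. The biological coefficient of variation was 0.574. DESeq2 1.42.0, other scalings and filters, a replicate block and leaving out each library were tried as alternatives. The gene table was fitted alike on all 6 libraries. Shares and ratios were compared by exact two-sided permutation tests over libraries. The fit was tested on simulated data.

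Same-numbered libraries deviated together weakly, with correlations of 0.190 over repeat families and 0.141 to 0.196 over genes between the 3 pairs of groups. All were over 0.1, and the blocked fit therefore takes the number as a pair. What the number stands for is not in the labels.

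Families named in detail are the 10 with the highest mean CPM, the 5 of lowest p among the higher and among the lower ones, any in the authors' list of differentially expressed families, and MERVL-int and MT2_Mm; for genes, Suv39h1, Dicer1 and the 2 of lowest p. MTB, MTC-int and others were added after their values were seen, to show every subgroup. The members, the gene list and the marker lists were chosen with earlier results of these data known. Of the marker genes, 4 blood and 5 sperm genes were listed, of which 3 each matched the table, and 6 of 8 2-cell genes matched.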

Additional observations from a re-analysis of the deposited data

How the results depend on the processing

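Of the alternatives run, 2 called any of the 44 members, and both were chosen after seeing the data, as were the authors' size factors: with the replicate block, median-ratio scaling called 1 (ORR1A0) and the authors' size factors called 4. The block with TMM changed no call of a member. The members' median log2 fold change, 0.01 with TMM, was -0.24 with table totals alone, -0.24 with gene library factors and -0.38 with the authors' size factors, and -0.035 to 0.030 without 1 library. MTD was at -0.18, -0.15 and -0.32 and MTC at -0.13, -0.062 and -0.26 under these 3 scalings. ORR1A0-int was at -0.0091 with gene library factors and -0.082 with the authors' size factors, which put ORR1A2 at -0.086.

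Without 1 library the log2 fold change ran between -0.46 and 0.58 for ORR1A0-int, -0.10 and 0.57 for ORR1A2, -0.13 and 1.08 for ORR1A1, -0.082 and 0.32 for MTC, -0.33 and 0.15 for ORR1A1-int and -0.45 and 0.075 for MTE2a. The MaLR share differed by 0.0258 percentage points over all 4 libraries, by -0.806 within the pair numbered 2 and by -2.25 to 2.31 without 1 library. As CPM of gene counts, the MaLR sum differed by -4138 CPM. The log2 internal-to-LTR ratio of all members differed by -0.089, and by -0.378 to 0.201 without 1 library. With 2 libraries per group, both signs of these small differences could not be separated from the library spread, and the cause of the changes in sign was not tested. Depth was no close limit, since each member had at least 732 counts.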
